A study of Mus musculus with 47 samples.

Results

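The glucuronosyltransferases (Ugt), glutathione transferases (Gst), membrane-bound glutathione transferases (Mgst) and sulfotransferases (Sult) of the mouse small intestine were followed over crypts and villi. Members were the probe sets whose single gene symbol named an Ugt, Gst, Mgst or Sult gene, pseudogenes left out, a rule on names alone. This gave 59 of the 45101 probe sets of the array, for 46 of the 18194 genes with a symbol of their own: 12 probe sets for 10 Ugt genes, 27 for 20 Gst genes, 5 for 3 Mgst genes and 15 for 13 Sult genes. The Ugt1a genes are not among them, because their 3 probe sets carry several symbols, and neither is the probe set shared by Ugt2a1 and Ugt2a2.

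RNA from small intestinal crypts and villi of C57BL/6 mice was hybridised to 47 Affymetrix mouse arrays in 12 groups of 4, with 3 arrays for the villi of NWD2-fed mice. In the genetic arm the mice were 3 months old and ate the Ain76A diet, and they were wild type, Apc1638N/+ or p21-/-. In the dietary arm wild-type mice, labelled as 1 year old, ate Ain76A, NWD1 or NWD2 for 1 year from weaning. As background, Ain76A is a purified control diet, NWD1 is a Western-style diet rich in fat and poor in calcium and vitamin D, and NWD2 is that diet with calcium and vitamin D raised. Apc is the tumour suppressor of the Wnt pathway, Apc1638N is a germline truncating allele carried here in 1 copy, and p21 is the cell cycle inhibitor Cdkn1a. The labels do not say whether the arrays of a group came from separate mice, so the p-values below measure the spread between these arrays. The 2 arms differ in age and in the time on diet, which cannot be told apart between them.

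Conjugation is the second phase of the handling of drugs, dietary chemicals, bile acids and steroids. Ugt enzymes sit in the endoplasmic reticulum and transfer glucuronic acid from UDP-glucuronic acid. Gst enzymes add glutathione to reactive electrophiles, the Mgst proteins being a separate, membrane-embedded group with roles in lipid peroxide and leukotriene metabolism. Sult enzymes move a sulfonate group from PAPS onto hydroxyl groups. The intestinal epithelium is a first site of this chemistry for swallowed compounds, and its cells are born in crypts and mature as they climb the villus.

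Between 14814 and 23355 probe sets had a value on an array, and between 28 and 42 of the 59 members did. Most markers listed for the tissues followed the labels. Averaged over crypt minus villus in the 6 conditions, all 6 tested proliferation markers were higher in crypts, as were all 3 tested Paneth cell markers, and 7 of 9 tested enterocyte markers were higher in villi. The 1 crypt base stem cell marker that could be tested in all 12 groups, Rnf43, was higher in villi (-0.38 ± 0.15). More of that list could be tested within single conditions. There 2 of 3 were higher in crypts in each of the Ain76A, NWD1 and NWD2 pairs of groups. In Apc1638N/+ and in p21-/- mice it was 1 of 2. None was called lower in crypts within a single condition. Levels are given as normalized log2 values and differences as log2 differences ± SE, so that a difference of 1 is a 2-fold change on the linear scale. All arrays are bulk samples, in which fewer cells of a type and less RNA per cell cannot be told apart.

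The families differed in how much of them the intestine showed. Of the 12 Ugt probe sets, 4 had a value on every array and 3 on none. The Gst family had 10 of 27 measured everywhere and 1 nowhere, and the Mgst family 3 of 5 and 1. Of the 15 Sult probe sets, 4 were measured on every array and 5 on none. The 4 that were always measured belong to Sult1b1, Sult1d1 and Sult2b1. Sult1a1, the phenol sulfotransferase, Sult1e1, the estrogen sulfotransferase, Sult2a8 and both probe sets of the brain-type Sult4a1 had no value on any array. Sult1c1 had a value on 1 array, and Sult2a2, Sult3a1 and Sult6b1 on 2 arrays each. Among the Ugt genes, Ugt2b37 and Ugt3a2 were blank throughout, Ugt3a1 had a value on 1 array and Ugt2b1 on 5. No source used here gives the reason for a blank, so a blank is read neither as absence nor as a low value.

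**Figure D1:**
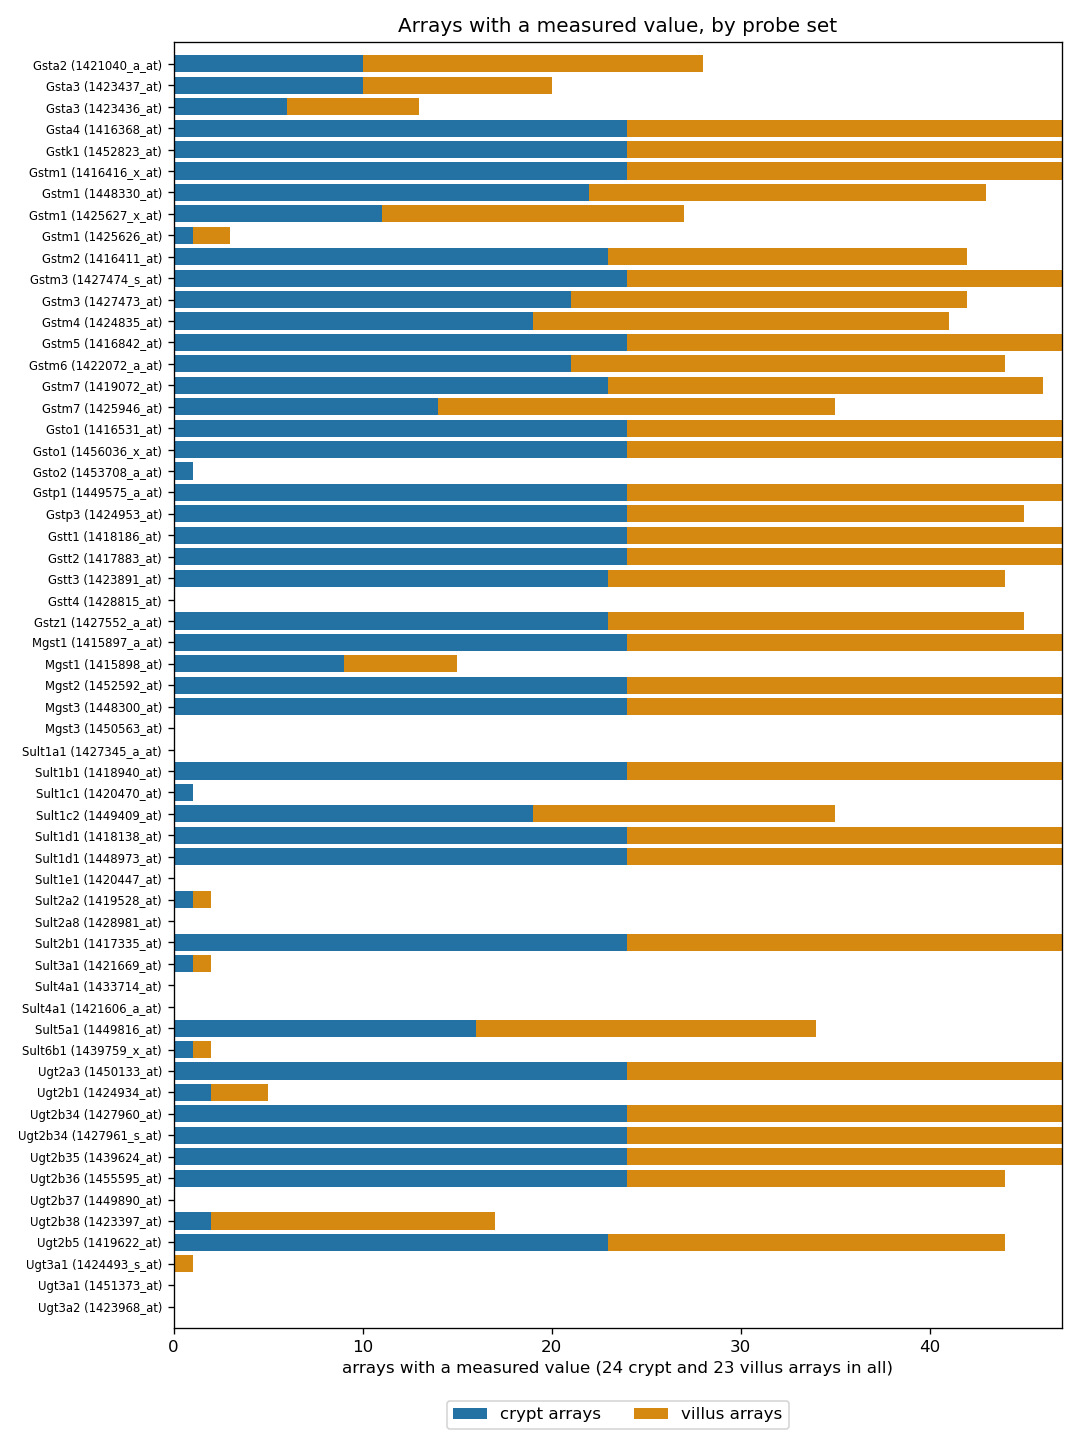
Number of arrays with a measured value for each of the 59 probe sets, split into 24 crypt arrays (blue) and 23 villus arrays (orange). Sult1b1, Sult1d1 and Sult2b1 fill the whole width, while most other Sult probe sets have few or no values.

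A few members were measured unevenly, and these were picked after their values were seen. Ugt2b38 had a value on 15 villus arrays and on 2 crypt arrays. In wild-type villi it read 9.19, 8.45, 9.09 and 7.56, and in wild-type crypts it had no value. Gsta2, an alpha class enzyme, had no value in any Ain76A crypt, whereas NWD1 crypts read 8.60, 8.41, 8.43 and 8.06 and NWD2 crypts 8.31, 9.76, 9.54 and 9.23. One of 2 probe sets of Gsta3, another alpha class enzyme, showed a similar split. It had a value in 1 of 4 Ain76A crypts against 4 of 4 NWD1 crypts and 4 of 4 NWD2 crypts. The other Gsta3 probe set had a value on only 6 crypt arrays in all, and neither Gsta3 probe set passed the filter on low values. Gsta2 could not be tested against Ain76A crypts, since a test needed 3 measured arrays in each group, and Gsta3 was not tested in any comparison. Outside the dietary arm, a Gsta2 value was present on 1 wild-type crypt array, at 7.63, and on 1 Apc1638N/+ crypt array, at 10.41.

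The first comparison asked which conjugating enzymes lie on the crypt side and which on the villus side, with the 6 conditions averaged. The tested Sult genes all lay on the villus side. Among Gst and Ugt genes both sides were found, and on this mean Mgst1 and Mgst2 lay on the crypt side while Mgst3 lay on the villus side. Of 59 members, 34 passed the filter on low values and 27 probe sets of 23 genes could be tested in all 12 groups. With limma and Benjamini-Hochberg adjustment, 7 lay higher in crypts and 13 in villi, while 7 did not pass. That is 74.1% of the tested members, against 75.1% of all 10503 probe sets tested, so a tissue difference was about as common among these enzymes as on the whole array (34.5% of all probe sets were higher in crypts and 40.6% in villi). The median difference of the members was -0.35, against -0.06 for all probe sets tested.

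Sult2b1 sulfonates cholesterol and other 3-hydroxysteroids. Its levels were 9.59, 9.79, 10.12 and 9.43 in Ain76A crypts and 12.14, 12.19, 12.29 and 11.99 in Ain76A villi. Every villus array lay above every crypt array there, and the same was true within the wild-type, Apc1638N/+, p21-/- and NWD1 pairs of groups. Over the 6 conditions the difference was -1.36 ± 0.14 (limma, adjusted p = 8.72e-12). Sult1b1, which sulfonates thyroid hormones and small phenols, read 12.47, 13.14, 12.47 and 13.44 in wild-type crypts and 14.18, 14.39, 13.97 and 13.46 in wild-type villi, a narrow separation, and differed by -1.04 ± 0.12 overall (adjusted p = 1.89e-10). Sult1d1, which acts on catecholamines in the mouse, was higher in villi by both of its probe sets, at -0.69 ± 0.13 and -0.74 ± 0.14. In the RefSeq annotation of assembly GRCm38.p6, Sult1b1, Sult1d1 and the unmeasured Sult1e1 stand next to each other at the end of the Ugt2 cluster, so of these neighbouring genes 2 shared the villus side and 1 had no value.

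On the crypt side, Mgst1, a membrane enzyme of the outer mitochondrial membrane and endoplasmic reticulum, had the widest difference. It read 14.38, 13.97, 13.90 and 14.22 in wild-type crypts and 10.63, 11.88, 10.48 and 12.48 in wild-type villi. The crypt arrays were tight and the villus arrays scattered (SD 0.22 and 0.97, n = 4 each). Its difference was 1.35 ± 0.19 over the 6 conditions (limma, adjusted p = 5.77e-08). Gstp3, a pi class gene, differed by 1.02 ± 0.13 (adjusted p = 3.24e-09), with levels of 8.65 ± 0.32 in wild-type crypts (SD, n = 4) and 7.81 ± 0.58 in wild-type villi (SD, n = 3, 1 array without a value). Its neighbour Gstp1, the abundant pi class enzyme, stayed close to 0 at 0.09 (95% interval from -0.05 to 0.23). Both are pi class genes, so a class name did not fix the side.

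Promoter windows are shown for the widest 2 villus-side and 2 crypt-side genes, which share a direction within each pair. Sult2b1, Sult1b1 and Mgst1 have 2 windows each, and the first listed is shown. The windows shown run from 250 bases before to 50 after the annotated start (RefSeq, GRCm38.p6). Each is read 5′ to 3′ on the gene's strand, and capitals mark a match to one of the motifs searched on both strands.
Villus side, chr7:45759563-45759862, minus strand, capitals at GCGTG. 
Sult2b1: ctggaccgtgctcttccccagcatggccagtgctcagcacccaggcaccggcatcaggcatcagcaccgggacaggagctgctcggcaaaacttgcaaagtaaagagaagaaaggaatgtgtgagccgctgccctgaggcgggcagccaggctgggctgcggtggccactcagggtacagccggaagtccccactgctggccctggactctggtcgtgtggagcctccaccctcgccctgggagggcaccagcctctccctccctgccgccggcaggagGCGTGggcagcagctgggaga
Villus side, chr5:87538146-87538445, minus strand, capitals at AGTTCA or its reverse complement.
Sult1b1: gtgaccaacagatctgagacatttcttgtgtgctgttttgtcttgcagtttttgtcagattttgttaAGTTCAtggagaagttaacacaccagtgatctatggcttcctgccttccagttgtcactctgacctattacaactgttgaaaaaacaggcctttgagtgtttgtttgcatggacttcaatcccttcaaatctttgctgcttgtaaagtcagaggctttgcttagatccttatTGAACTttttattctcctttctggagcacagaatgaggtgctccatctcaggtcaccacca
Crypt side, chr6:138140277-138140576, plus strand, capitals at the reverse complement of TGACNNNGC.
Mgst1: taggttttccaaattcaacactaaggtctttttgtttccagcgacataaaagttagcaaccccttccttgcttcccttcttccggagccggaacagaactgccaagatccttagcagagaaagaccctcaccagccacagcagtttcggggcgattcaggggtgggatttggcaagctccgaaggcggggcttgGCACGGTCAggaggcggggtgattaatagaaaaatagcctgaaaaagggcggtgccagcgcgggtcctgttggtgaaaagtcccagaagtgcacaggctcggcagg
Crypt side, chr19:4059398-4059697, minus strand, capitals at GCGTG.
Gstp3: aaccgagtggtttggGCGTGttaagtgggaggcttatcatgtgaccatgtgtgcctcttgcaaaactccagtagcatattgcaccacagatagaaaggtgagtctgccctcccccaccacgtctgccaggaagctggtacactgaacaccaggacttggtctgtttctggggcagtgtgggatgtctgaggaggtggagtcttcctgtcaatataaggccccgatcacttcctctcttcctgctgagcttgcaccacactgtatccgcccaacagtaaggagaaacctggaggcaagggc

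RefSeq windows were found for 41 member genes, 53 windows in all because some genes have several starts, and 4 motifs were counted. The antioxidant response element core TGACNNNGC occurred in 4 of 53 member windows (Gsta3, Gstm5, Gstm7 and Mgst1) and in 12.4% of all 32851 windows. The aryl hydrocarbon receptor core GCGTG was found in 11 member windows and in 32.4% of all windows. For the HNF1 half-site GTTAAT the counts were 5 member windows and 7.1%, and for the nuclear receptor half-site AGTTCA 6 member windows and 14% of all windows. GCGTG stood in the windows shown of both Sult2b1, on the villus side, and Gstp3, on the crypt side. The window of Sult1b1 that is not shown also held GCGTG. A match describes letters in the window only.

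Among the other Gst classes, Gstk1, the kappa class enzyme of mitochondria and peroxisomes, was higher in villi (-1.0 ± 0.16, limma, adjusted p = 3.16e-07). Gstt1, the theta class enzyme that acts on small halogenated compounds, followed at -0.93 ± 0.12, and Gsta4, which conjugates the lipid peroxidation product 4-hydroxynonenal, at -0.70 ± 0.20. Gsto1, the omega class enzyme, was higher in villi by both probe sets (-0.57 ± 0.07 and -0.54 ± 0.11). The theta class was split: Gstt2 lay on the crypt side at 0.32 ± 0.08, and Gstt3 did not pass at 0.09 ± 0.13. These 3 genes and the blank Gstt4 stand side by side in the genome. Gstz1, maleylacetoacetate isomerase of tyrosine breakdown, was higher in crypts by 0.34 ± 0.10. Within the mu class cluster, Gstm7 (-0.50 ± 0.17) and Gstm5 (-0.35 ± 0.13) were higher in villi, while neither probe set of Gstm1 passed (0.07 ± 0.14 and 0.10 ± 0.17).

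The Ugt genes of the chromosome 5 cluster did not share a side. Ugt2b35 was higher in crypts, at 11.48, 11.49, 11.25 and 11.28 in wild-type crypts against 9.98, 10.64, 9.68 and 9.98 in wild-type villi, with 0.95 ± 0.14 overall (limma, adjusted p = 5.47e-08). Ugt2a3, a bile acid glucuronosyltransferase, passed narrowly in the same direction (0.37 ± 0.17, adjusted p = 0.0432), and its call was lost under several alternatives. For Ugt2b34 one probe set was higher in villi (-0.42 ± 0.12) and the other missed the threshold in the same direction (-0.36 ± 0.18, adjusted p = 0.0629). Ugt2b5 did not pass (0.40 ± 0.26). Leukotriene C4-forming Mgst2 was higher in crypts by 0.34 ± 0.12, and Mgst3 was higher in villi by 0.39 (-0.39 ± 0.15). Each of them passed within only 2 of the 6 conditions. With Ain76A, NWD1 and NWD2 at 1 year both lay between -0.11 and 0.02, so these means came from the genetic arm. Many mu class and Ugt2b genes are close paralogs, and 7 of the 59 probe sets carry a suffix that marks possible matches to other genes (s_at or x_at), so their signal may be shared between relatives.

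**Figure D2:**
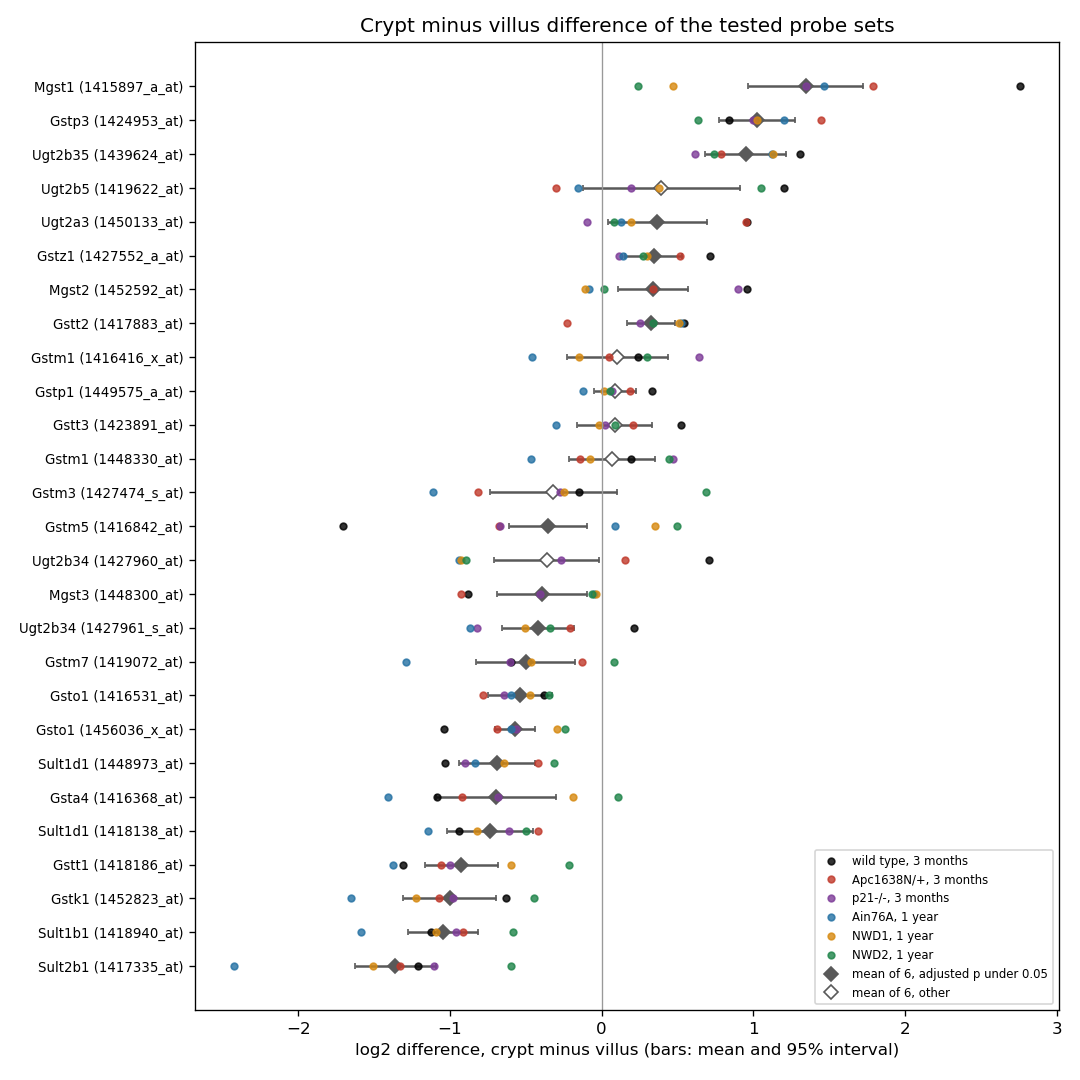
Crypt minus villus log2 difference of each probe set that could be tested in all 12 groups, sorted by the mean over the 6 conditions (diamonds, bars for the 95% interval), with the 6 single conditions as points. Mgst1, Gstp3 and Ugt2b35 lie on the crypt side and Sult2b1, Sult1b1 and Gstk1 on the villus side.

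Within single conditions both the sides and the number of calls varied. Of the 27 probe sets, 13 had the same sign in all 6 conditions, 4 toward crypts (Mgst1, Gstp3, Ugt2b35 and Gstz1) and 9 toward villi, while 14 changed sign at least once. Gstm5 and 1 probe set of Gstm1 lay on each side in 3 conditions, and Mgst2, higher in crypts on average, lay below 0 in 2. In wild-type mice at 3 months 7 members were higher in crypts and 8 in villi of 30 tested, against 48.3% called of all probe sets (20.3% higher in crypts, 27.9% in villi). In Apc1638N/+ mice the counts were 2 and 8 of 31 (42.2% of all, 21.2% and 21% by side), and in p21-/- mice 4 and 8 of 28 (45.6%, 23.2% and 22.4%). Ain76A-fed mice at 1 year had 4 and 13 of 32 (56.8%, 26.6% and 30.3%) and NWD1-fed mice 3 and 4 of 34 (47%, 22.3% and 24.7%). In NWD2-fed mice no member passed of 34, while 15.9% of all probe sets did, and 2 members had an unadjusted p under 0.05 (limma), as did 30.8% of all probe sets. This zero did not hold throughout: there were 24 calls when arrays were weighted, 2 when the fit used these groups alone, and 1 under the deposited scaling, without NWD2 villus array 1 or without the 3 villus arrays nearest to crypts (an alternative chosen after seeing the data). In NWD1-fed mice the total rose from 7 to 16 with array weights and 17 with these groups alone, and in Apc1638N/+ mice it was 5 with these groups alone. Elsewhere it was 14 without Apc1638N/+ villus array 3 and 7 without p21-/- crypt array 1.

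The villus level of Mgst1 is a term of its crypt minus villus difference, so a relation between them is partly built in. Crypts stayed between 13.23 and 15.20 in every condition. Villi ran from 11.36 ± 0.97 in wild-type mice (SD, n = 4) over 12.77 ± 0.60 with Ain76A at 1 year (n = 4) to 14.06 ± 0.51 with NWD1 (n = 4) and 14.65 ± 0.15 with NWD2 (n = 3). The crypt minus villus difference was 2.76 ± 0.47 in wild-type mice, 1.79 in Apc1638N/+ mice, 1.35 in p21-/- mice and 1.47 ± 0.47 with Ain76A at 1 year. It did not pass with NWD1 or NWD2. Over 2 Paneth cell markers measured on every array, the level was 13.31 to 15.51 in NWD1 villi and 10.68 to 12.99 in Ain76A villi. Of 5 tested Paneth cell markers 3 were higher in NWD1 than in Ain76A villi, and none of 5 in NWD2 villi. The part of these markers in the Mgst1 level was not tested. Gstm5, a mu class enzyme best known from brain and testis, had a difference of -1.71 ± 0.31 in wild-type mice and did not pass in the other 5 conditions. Sult2b1 ranged from -2.42 ± 0.33 with Ain76A at 1 year to -1.11 ± 0.33 in p21-/- mice among the conditions in which it passed.

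**Figure D3:**
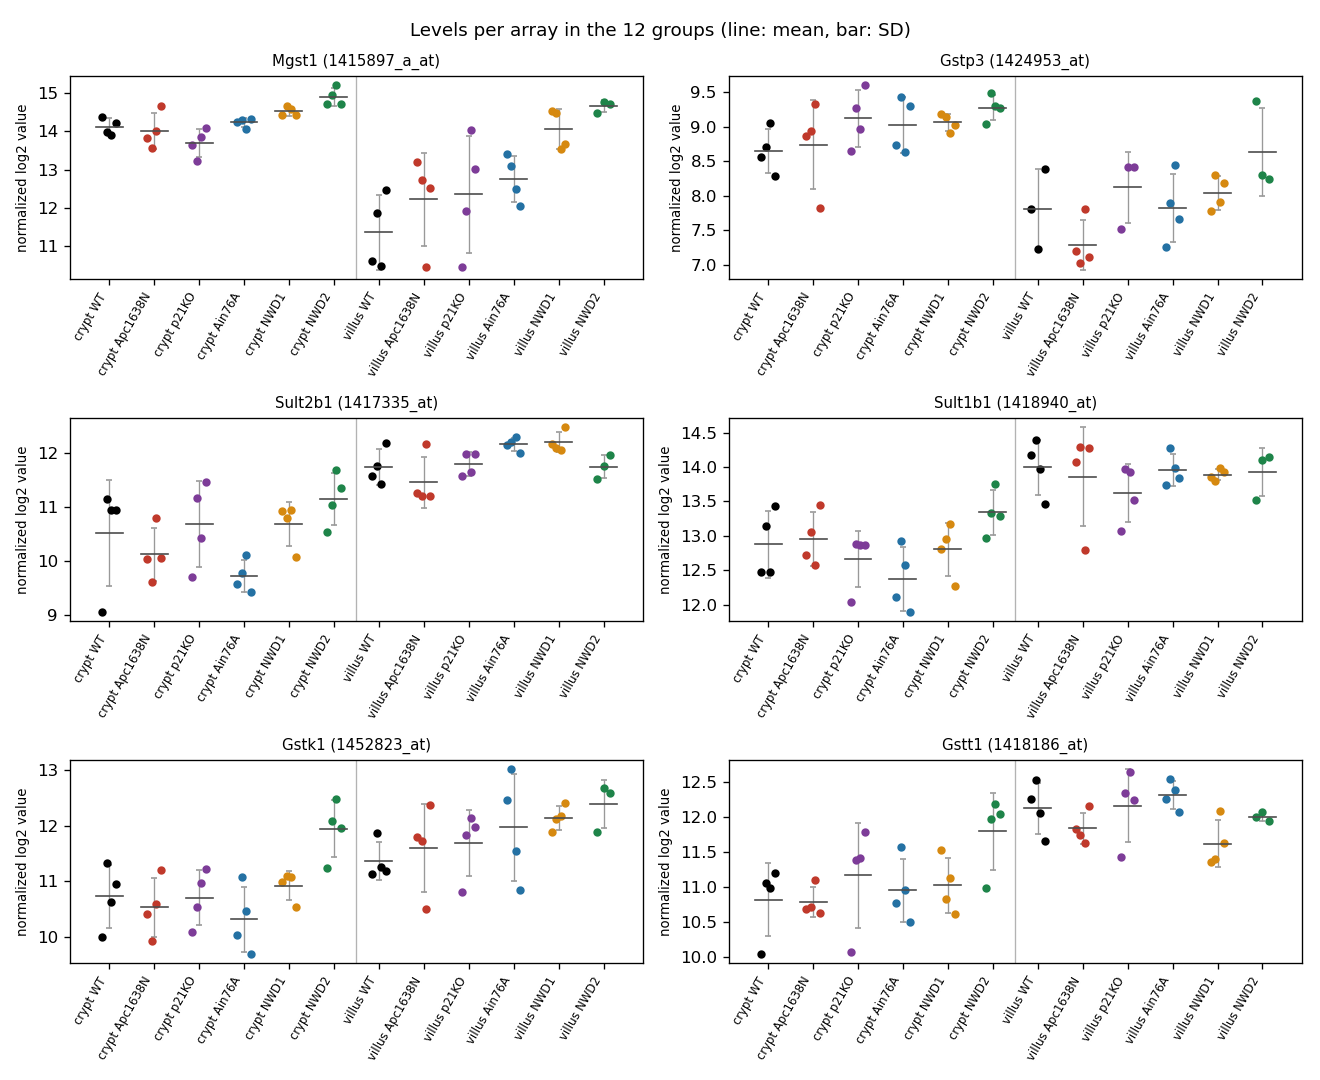
Normalized log2 value of every array in the 12 groups for Mgst1, Gstp3, Sult2b1, Sult1b1, Gstk1 and Gstt1, with group means (lines) and SDs (bars); crypts stand left of the grey line. Mgst1 is scattered in villi of the genetic arm and near its crypt level in NWD2 villi, and Sult2b1 is low in Ain76A crypts.

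The genes around the enzymes were read from 5 lists, each gene by its brightest probe set, and their counts stand beside 75.1% of all probe sets called in this comparison. Of 11 tested genes that supply or recycle cofactors, 2 were higher in crypts and 5 in villi over the 6 conditions. Ugdh, which makes UDP-glucuronic acid, was higher in villi (-1.17 ± 0.15), as were Slc35d1, its carrier into the endoplasmic reticulum (-0.90 ± 0.15), Papss2, a PAPS synthase (-0.99 ± 0.18), Gclm, a subunit of glutamate-cysteine ligase (-1.33 ± 0.13), and Dpep1, a dipeptidase of glutathione conjugates (-1.55 ± 0.18). Gsr, glutathione reductase (1.20 ± 0.13), and Papss1, the other PAPS synthase (0.31 ± 0.10), were higher in crypts, so the PAPS synthases lay on opposite sides. Of 6 tested exporters and carriers, 5 were higher in villi, with Abcc2 at -1.98 ± 0.26 and Abcg2 at -0.59 ± 0.11, and Slco2b1 was higher in crypts at 1.74 ± 0.18.

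Of 5 other phase II enzymes 2 were higher in crypts and 3 in villi, the latter including the soluble epoxide hydrolase Ephx2 (-1.67 ± 0.13) and the acetyltransferase Nat2 (-1.13 ± 0.07). Among 2 tested enzymes that remove conjugated groups, Gusb, beta-glucuronidase, was higher in crypts (0.38 ± 0.12) and Arsa, a sulfatase, in villi (-0.73 ± 0.12). Of 11 regulators 2 were higher in crypts and 7 in villi. Bach1, a repressor of antioxidant genes, differed by -1.30 ± 0.09 and Nfe2l2, the activator that binds the same elements, by -0.32 ± 0.09. The nuclear receptor Hnf4g was also higher in villi (-0.81 ± 0.16), and the bile acid receptor Nr1h4 was higher in crypts (0.70 ± 0.14).

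The next comparison asked what the diets did to these enzymes after 1 year. In crypts of NWD2-fed mice 10 members were higher than in Ain76A crypts and none was lower. They were 2 Ugt genes (Ugt2b5 and Ugt2b36), 5 mu class genes (Gstm1, Gstm3, Gstm4, Gstm6 and Gstm7), Gstk1 and 2 Sult genes (Sult1b1 and Sult2b1). This was 31.2% of the 32 tested members, against 8.85% of all 13833 probe sets tested with 5.65% higher and 3.2% lower (limma, adjusted p under 0.05). The median difference of the members was 0.84, against -0.06 for all probe sets tested, and 31 of 32 lay above 0. At an unadjusted p under 0.05 there were 21 members, and 25.3% of all probe sets. The count was sensitive to the fit: it was 26 when the fit used only the compared groups, 29 with array weights, 4 with blanks filled and 3 with probe sets measured on every array. It was also 3 without NWD2 crypt array 3, 4 without NWD2 crypt array 2 or Ain76A crypt array 1, and 6 without NWD2 crypt array 4 or Ain76A crypt array 4.

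Ugt2b5, a glucuronosyltransferase of steroids and phenols in mouse liver, had the largest change. It read 8.53, 9.82, 7.83 and 8.15 in Ain76A crypts and 10.44, 12.35, 12.24 and 11.71 in NWD2 crypts. No array overlapped, and the difference was 3.10 ± 0.61 (limma, adjusted p = 0.00149). NWD1 crypts lay between, at 10.27, 9.96, 9.78 and 9.42. Its neighbour Ugt2b36 read 9.32, 10.22, 8.74 and 9.43 with Ain76A and 10.10, 11.07, 11.05 and 11.01 with NWD2, where 1 array reached into the Ain76A range, and passed narrowly (1.38 ± 0.45, adjusted p = 0.0456). Ugt2b35, next to Ugt2b36, differed by 0.35 ± 0.33 and did not pass. All 6 tested Ugt probe sets lay above 0, and 4 of them had an unadjusted p under 0.05.

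Gstm3 read 8.80, 10.00, 9.73 and 9.12 in Ain76A crypts and 10.20, 11.95, 11.51 and 11.51 in NWD2 crypts by 1 of its 2 tested probe sets. The groups did not overlap and differed by 1.88 ± 0.49 (limma, adjusted p = 0.0143), while the second probe set missed the threshold at 1.28 ± 0.51 (adjusted p = 0.108). Gstm6 read 8.32, 9.29, 9.28 and 8.47 against 9.16, 11.14, 11.17 and 10.50. The lowest NWD2 array lay within the Ain76A range, and the difference was 1.65 ± 0.42 (adjusted p = 0.0114). Gstm4, named after its values were seen, rose by 1.35 ± 0.32, Gstm7 by 1.25 ± 0.40 and Gstm1 by 1.06 ± 0.33 (its other tested probe set missed the threshold at 0.99 ± 0.41, adjusted p = 0.117, limma). Of the 7 genes of the mu cluster, Gstm2 missed the threshold (0.73 ± 0.30, adjusted p = 0.113) and Gstm5 lay below 0 (-0.46 ± 0.31, adjusted p = 0.367). The 5 called genes stand together with Gstm2 and Gstm5 in one run of 7 coding genes, and share of signal between these paralogs is possible.

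Gstk1 read 10.03, 11.07, 10.46 and 9.70 in Ain76A crypts and 11.25, 12.09, 12.47 and 11.97 in NWD2 crypts, a rise of 1.63 ± 0.38 without overlap (limma, adjusted p = 0.0054). Sult2b1 rose by 1.41 ± 0.33, from 9.73 ± 0.30 to 11.14 ± 0.49 (SD, n = 4 each), again without overlap, and Sult1b1 by 0.97 ± 0.28. Among members on the crypt side over the 6 conditions, Mgst1 (0.66 ± 0.47), Gstp3 (0.25 ± 0.30) and Gstt2 (0.03 ± 0.20) did not pass. The 95% interval for Gstt2 ran from -0.35 to 0.41. On the villus side Gstt1, Gsta4, Gsto1, Sult1d1 and Mgst3 did not pass either, though all 4 tested Sult probe sets had an unadjusted p under 0.05 (limma). Ugt2b36, which did pass, could not be tested over the 6 conditions. It was higher in crypts than in villi within p21-/- mice (1.55, limma, adjusted p = 0.00478). Within Ain76A mice 9 of the 10 called members lay toward villi, 6 of them called, and 1 toward crypts. Of all 32 members tested there 23 lay toward villi, and that comparison uses the same Ain76A crypt arrays. In wild-type mice 7 of 9 lay toward villi (2 called), in Apc1638N/+ mice 8 of 9 (4 called) and in p21-/- mice 4 of 7 (3 called, and 1 called toward crypts).

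Markers of other cells moved with this result. Averaged over the 9 enterocyte markers measured on every array, the level was 13.56 to 14.21 in NWD2 crypts and 11.87 to 13.20 in Ain76A crypts, and 6 of 9 tested markers were higher, with a median of 1.47. Over 4 proliferation markers the level was 11.04 to 12.28 against 12.56 to 13.02, with 3 of 7 tested lower. Of 7 tested Paneth cell markers 1 was lower. In wild-type crypts of the genetic arm the enterocyte level spanned 12.34 to 14.34. The part of these shifts in the rise of the conjugating enzymes was not tested. For Ugt2b5 the 4 Ain76A villus arrays read 8.84, 9.19, 9.25 and 7.67 and the NWD2 villus arrays 11.10, 10.71 and 10.10, beside 10.44 to 12.35 in NWD2 crypts. Ugt2b5 is only 1 of the 10 called members. Within Ain76A mice 9 of the 10 lay toward villi and 1 toward crypts. The crypt minus villus difference there was -2.42 for Sult2b1, -1.95 for Gstm6 and -1.87 for the first Gstm3 probe set. It was -1.65 for Gstk1 and -1.59 for Sult1b1.

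Genes of the pathway lists were seen in the same crypts. The counts below stand beside 8.85% of all probe sets called. Of 12 cofactor genes 3 rose and none fell, namely Dpep1 (2.38 ± 0.42), Ugdh (1.15 ± 0.36) and Bpnt1 (0.69 ± 0.20), which clears the by-product of sulfonation. Of 7 exporters and carriers Abcb1a (1.45 ± 0.42) and Abcg2 (0.96 ± 0.26) rose and Abcc1, a basolateral exporter of glutathione conjugates, fell (-0.97 ± 0.27). Nr1i3, the xenobiotic receptor CAR, was the 1 of 17 regulators called, at 1.35 ± 0.32. Ephx2 (1.54 ± 0.32) and Nat2 (0.62 ± 0.18) rose among 6 other phase II enzymes, and Arsa (0.88 ± 0.28) among 5 enzymes that remove conjugated groups. Nfe2l2 (0.04 ± 0.21) and Gclc (-0.42 ± 0.40) did not pass.

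**Figure D4:**
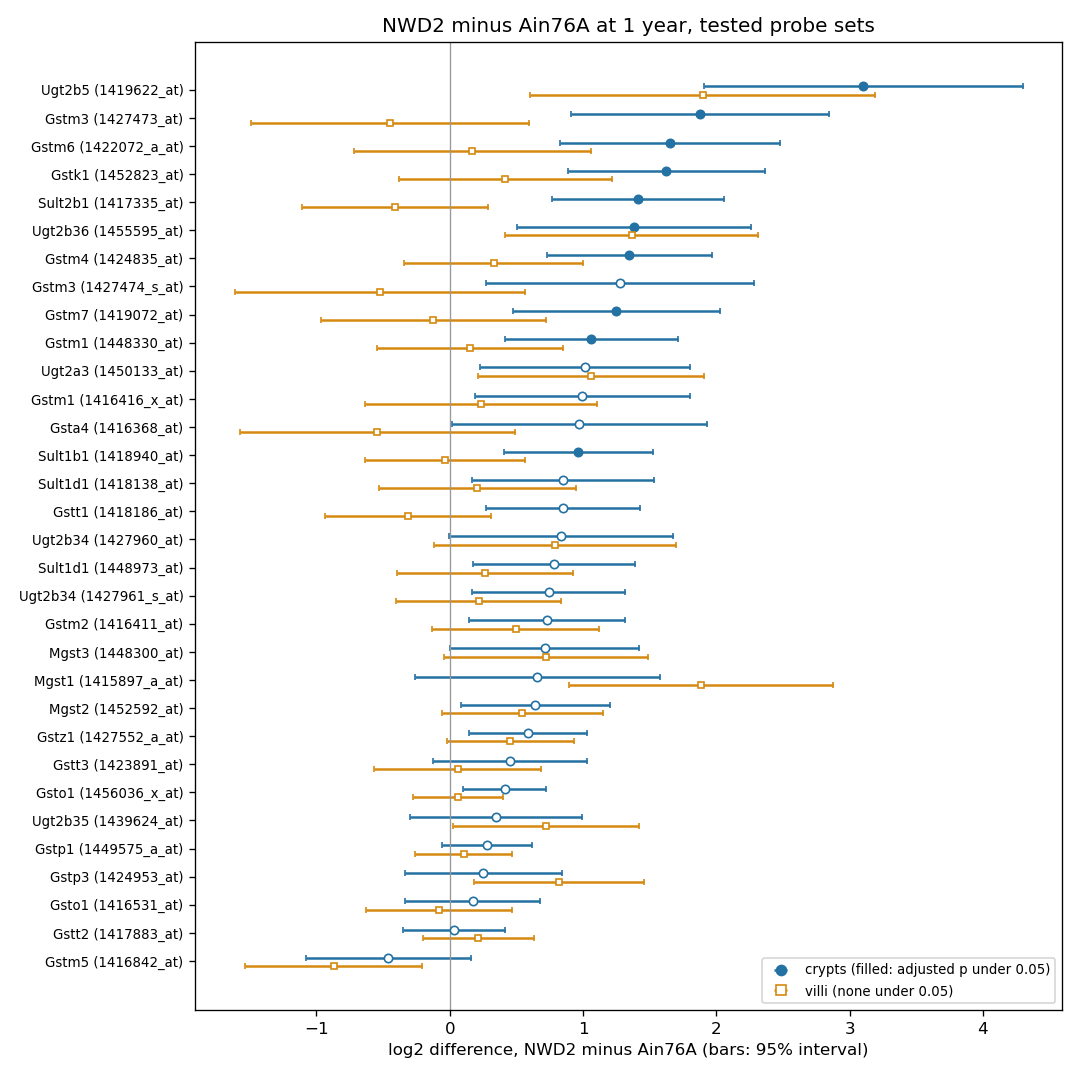
NWD2 minus Ain76A log2 difference at 1 year for each probe set tested in crypts (blue circles, filled where the adjusted p was under 0.05) and in villi (orange squares), with bars for the 95% interval. The 10 filled circles lie between 0.97 and 3.10, and no villus square passed.

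In NWD2 villi no member passed of 34 tested, and 0.228% of all probe sets did. At an unadjusted p under 0.05 there were 7 members (limma) and 12.2% of all probe sets, and counts of 11 with array weights and of 2 with the compared groups alone were reached. Mgst1 came nearest, at 13.40, 13.10, 12.51 and 12.05 in Ain76A villi and 14.48, 14.77 and 14.71 in NWD2 villi. These values do not overlap, but the difference of 1.89 ± 0.51 had adjusted p = 0.0829. Ugt2b5 read 11.10, 10.71 and 10.10 in NWD2 villi, above all 4 Ain76A villus arrays, with 1.90 ± 0.66 and adjusted p = 0.209. Whether the diet effect differed between tissues was tested as an interaction, in which no member passed of 32 (0.183% of all probe sets did) and 10 had an unadjusted p under 0.05, against 19.5% of all. The nearest were Sult2b1 (1.82 ± 0.48, adjusted p = 0.0663) and the first Gstm3 probe set (2.32 ± 0.73, adjusted p = 0.0971), both with a larger rise in crypts. Without NWD2 crypt array 1 there were 4 such calls, with array weights 14 and with the compared groups alone 7, Sult2b1 and this Gstm3 probe set among them each time.

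**Figure D5:**
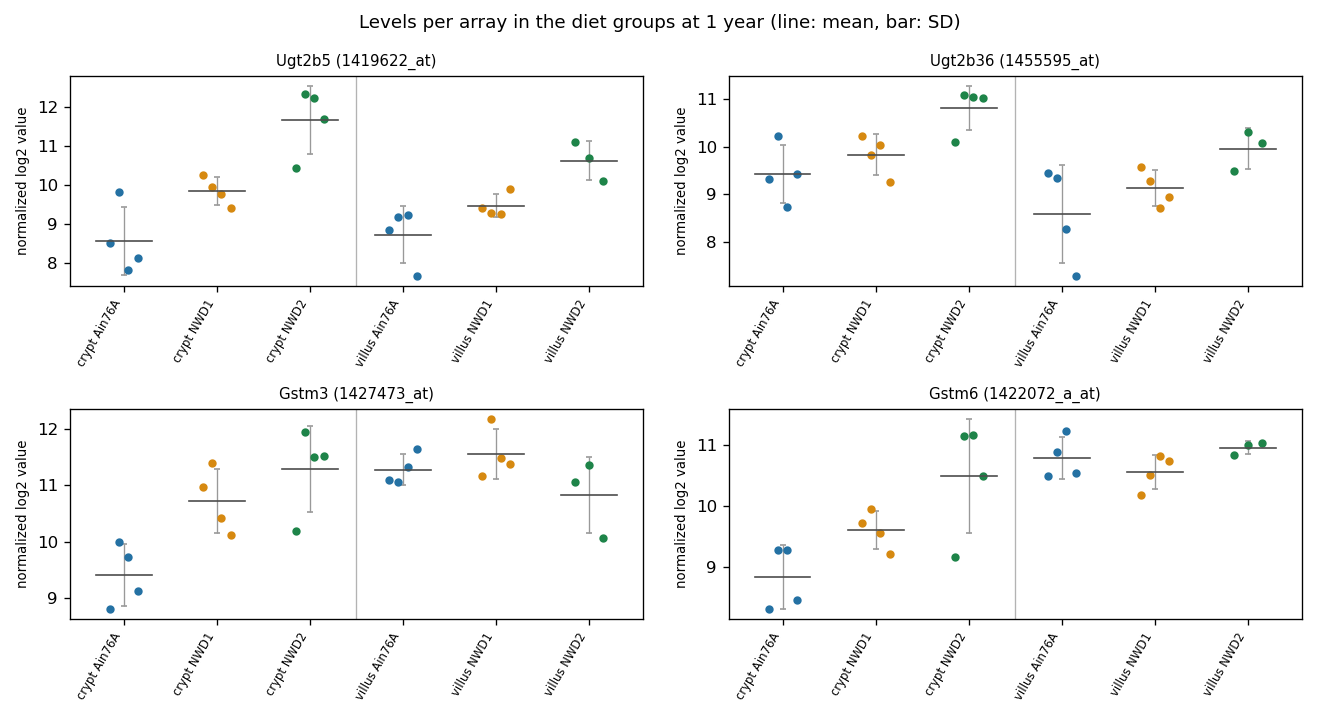
Normalized log2 value of every array of the dietary arm for the members that lead the NWD2 comparison, with group means (lines) and SDs (bars); crypts stand left of the grey line. For Ugt2b5 the 4 NWD2 crypt arrays read 10.44 to 12.35 and the 4 Ain76A crypt arrays 7.83 to 9.82.

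With NWD1 no member passed in crypts (0 of 32, limma), nor did any of the probe sets on the array (0%), and 5 members had an unadjusted p under 0.05, against 3.17% of all probe sets. Their nearest values were Sult2b1 at 0.95 ± 0.33 and Gstm3 at 1.31 ± 0.49. Of the 32 members 30 lay above 0, with a median of 0.38 against -0.04 for all probe sets tested. In NWD1 villi none of 34 passed (0.0647% of all probe sets). At an unadjusted p under 0.05 there were 3 (5.11% of all), among them Mgst1 (1.29 ± 0.47) and Gstt1 (-0.70 ± 0.30). In these villi 3 of 5 tested Paneth cell markers were also higher, and their part was not tested. The NWD1 interaction with tissue gave 0 calls of 32 (0%) and none at an unadjusted p under 0.05 (2.51% of all), with Sult2b1 (0.91 ± 0.47) and Gstt1 (0.78 ± 0.42) nearest. NWD1 and NWD2 were both compared with the same Ain76A arrays, and were not tested against each other.

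The genetic comparisons asked whether the Apc1638N allele or the loss of p21 changed the enzymes at 3 months. In crypts, 0 of 31 members passed for Apc1638N/+ (0.0957% of all probe sets) and 0 of 29 for p21-/- (4.19%). In villi it was 0 of 30 for Apc1638N/+ (0%) and 0 of 30 for p21-/- (0.039%). The limma fit gave 2, 1, 3 and 3 members at an unadjusted p under 0.05, in that order, against 13.4%, 19.5%, 5.1% and 11.4% of all probe sets. In villi, Gstm5 read 12.43, 12.14, 12.39 and 12.46 in wild-type mice and 10.71, 9.95, 12.03 and 11.15 in Apc1638N/+ mice, with no overlap and a difference of -1.39 ± 0.31 (adjusted p = 0.145). In p21-/- villi it read 12.10, 11.15, 10.49 and 11.39, also below every wild-type array (-1.07 ± 0.31, adjusted p = 0.2). The count in villi was 2 for Apc1638N/+ without its array 3 and 3 for p21-/- without its array 1, and in crypts 2 without Apc1638N/+ array 3 and 1 without p21-/- array 4. Both Gstm5 values use the same 4 wild-type arrays, which are the highest Gstm5 group of the 12 and tight (SD 0.15, n = 4).

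The next smallest p-values belonged to Mgst2 in Apc1638N/+ villi (0.98 ± 0.29, adjusted p = 0.573), Gstz1 in p21-/- villi (0.80 ± 0.24, adjusted p = 0.215) and Ugt2b34 in p21-/- crypts (-0.74 ± 0.29, adjusted p = 0.138). None of these passed in the reported fit, but each was called under some alternatives. In limma, Mgst2 reached adjusted p = 0.0487 with array weights and 0.0323 without Apc1638N/+ villus array 3. Gstz1 reached 0.0347 with array weights and 0.0395 without p21-/- villus array 1, and Ugt2b34 0.0408 without p21-/- crypt array 4. In Apc1638N/+ crypts the smallest p belonged to 1 probe set of Gsto1 (-0.54 ± 0.26) and Gstt2 (-0.41 ± 0.20), and the other Gsto1 probe set had the opposite sign (0.28 ± 0.16). Gstm2 in p21-/- crypts differed by 0.55 ± 0.30. The tissue interactions gave 0 calls for Apc1638N/+ (0% of all probe sets) and 0 for p21-/- (1.53%), with 2 and 4 members at an unadjusted p under 0.05 in limma (7.03% and 17.6% of all). Among them were Gstt2 (-0.77 ± 0.28) and Gstm5 (1.03 ± 0.44) for Apc1638N/+, and Ugt2b34 (-1.03 ± 0.41) and Gstm5 (1.04 ± 0.44) for p21-/-.

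Ain76A-fed mice of the dietary arm were also set against wild-type mice of the genetic arm, a comparison in which age, time on diet and arm coincide. In villi 9 members were higher at 1 year and 1 lower of 30 tested, which is 33.3% against 16.1% of all probe sets (7.47% higher, 8.64% lower). The higher ones were both tested probe sets of Gstm3 (1.60 ± 0.49 and 1.49 ± 0.51) and of Gstm1 (1.43 ± 0.41 and 1.12 ± 0.33), Mgst1 (1.40 ± 0.47), 1 probe set of Ugt2b34 (1.32 ± 0.43), Mgst2 (0.94 ± 0.29), Gstz1 (0.93 ± 0.24) and Gstp1 (0.51 ± 0.17). For the first Gstm3 probe set the 3-month villi read 10.53, 10.23, 8.57 and 9.38 and the 1-year villi 11.10, 11.06, 11.33 and 11.65, without overlap. Mgst2 also separated, with 11.62, 12.12, 11.56 and 11.85 against 12.92, 12.98, 12.36 and 12.64. Gstm5 was the lower one, at 10.43, 11.37, 11.73 and 10.56 with 1-year villi, below all 3-month villi (-1.33 ± 0.31, limma, adjusted p = 0.00376). No Sult probe set passed. The count dropped to 3 without wild-type villus array 3 and to between 4 and 6 without wild-type villus array 1 or without Ain76A villus array 1, 2 or 3.

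Beside this, all 6 lymphocyte markers were lower in the 1-year villi, with a median of -2.39, and over the 2 of them measured on every array the level was 11.90 to 12.75 against 13.80 to 14.78. Of 7 enteroendocrine markers 4 were lower. Their part in the differences of the enzymes was not tested. Among the pathway lists, Gsr (1.01 ± 0.30), Slc35d1 (1.06 ± 0.36), Dpep1 (1.31 ± 0.42), Abcb1a (1.65 ± 0.42), Arsa (0.90 ± 0.28), Acy3 (1.32 ± 0.35) and Hnf4a (0.60 ± 0.20) were higher and Abcc1 (-0.89 ± 0.29) lower. In crypts 2 members were higher at 1 year of 32 tested, against 16% of all probe sets (9.31% higher, 6.71% lower). Gstm2 read 8.20, 9.04, 7.84 and 8.0 at 3 months and 9.29, 9.83, 9.72 and 9.23 at 1 year, without overlap (1.25 ± 0.30, limma, adjusted p = 0.00521). Mgst3 differed by 1.06 ± 0.36 (adjusted p = 0.0409), with 2 of the 3-month arrays, at 10.88 and 11.72, well below the other 2, and without those 2 arrays it was 0.23 and no longer passed. Beside the crypt result, 4 of 9 enterocyte markers were lower and 3 of 7 enteroendocrine markers higher at 1 year.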

How the data were processed

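Biotin-labelled cRNA was made from column-purified total RNA (labels' protocols). The deposited values are log2 expression values, 1 per probe set and array, made by the authors with GCOS per the submitters' processing notes, which give no version. Of all cells 55.2% were blank and were kept blank. Arrays were quantile-normalized over the 8404 probe sets that had a value on all 47 arrays, with interpolation for the rest. The 14919 probe sets above the array median on at least 3 arrays were kept. One limma model (limma 3.58.1, R 4.3.3) with a mean for each of 12 groups and a trended prior was fitted to all of them. A probe set was tested where at least 3 arrays of each compared group had a value, p-values were Benjamini-Hochberg adjusted over all probe sets tested, and calls are at adjusted p under 0.05. The fit was tested on simulated data for NWD2 against Ain76A crypts, where 58 of 100 probe sets changed by 1 (log2) and 95 of 100 changed by 2 were recovered, with 3 false calls among 13833 tested. The simulated noise was independent between probe sets. Deviations shared by the probe sets of an array were left out, so these numbers do not cover them.

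Members and lists were chosen with earlier results of these data known. Named genes are the called genes with the largest differences (8 on each side of the crypt-villus mean, 6 for each other comparison, the 2 smallest p where fewer than 2 passed) and the gene measured on most arrays in each subfamily. Replicate numbers were not treated as pairs: same-numbered arrays correlated between -0.23 and 0.54 (crypt with villus) and between -0.45 and 0.57 (between conditions) in their deviations from group means. The alternatives were the deposited scaling, no filter on low values, probe sets measured on every array, blanks filled with the array's lowest value, 1 probe set per gene, no trend, array weights, a fit on the compared groups alone, a replicate block and arrays left out. The number of arrays limits the precision. All 59 members matched a gene in RefSeq.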

Additional observations from a re-analysis of the deposited data

Results flagged for a closer look

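Of 309 groups of 4 arrays examined over the named members, 19 held an array far from its companions (Dixon's gap, 95% level), and chance flags about 1 in 20. Among the sulfotransferases, Sult2b1 was low in wild-type crypt array 1 (9.069, the others 10.93 to 11.15) and NWD1 crypt array 4 (10.08, the others 10.8 to 10.94), and high in Apc1638N/+ villus array 3 (12.15, the others 11.2 to 11.25). In that same villus array Sult1b1 was low (12.8, the others 14.07 to 14.3), as it was in p21-/- crypt array 1 (12.04, the others 12.86 upward). Sult1d1 was high in Ain76A crypt array 2 (13.61) and, by its other probe set, low in wild-type villus array 4 (11.72).

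NWD2 crypt array 1 was the low one for 4 members: Gsta4 (10.89, the others 12.25 to 12.39), Gstm7 (9.224, the others 9.772 to 9.847), Ugt2b36 (10.1, the others 11.01 to 11.07) and Mgst2 (13.09, the others 13.35 to 13.37). Without it 11 members were called in the NWD2 comparison of crypts in place of 10. Mgst2 was also low in NWD1 crypt array 4 (12.81).

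Single values past the gap in the remaining groups were Gstk1 in wild-type villus array 2 (11.87), Gstm7 in p21-/- villus array 1 (8.174), Ugt2b34 in p21-/- crypt array 4 (13.69), Gsto1 in p21-/- crypt array 3 (14.36) and, by its other probe set, in wild-type crypt array 2 (13.26), Gstm1 in Ain76A villus array 1 (10.61) and Gstp1 in Ain76A crypt array 1 (14.37). Their causes were not tested.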

How the results depend on the processing

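Of 438 counts of called members under alternatives, 389 were within 1.5 times the reported count and 49 were not, 22 of these from leaving out an array. Of the values of named members, 1927 kept their side of the threshold, 34 gained a call, 109 lost one and 0 changed sign. The causes of the shifts below were not tested.

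The NWD2 count in crypts, 10 as reported, was 29 with array weights, 26 with only the compared groups, 4 with blanks at each array's lowest value and 3 with probe sets measured on every array. NWD2 villi gave 11 with array weights and 2 with only the compared groups, and the NWD2 interaction 14 and 7, with 1 under the deposited scaling and 2 with a replicate block. The crypt-villus count in NWD2 mice was 24, 2 and, under the deposited scaling or without the 3 villus arrays toward crypts (chosen after seeing the data), 1. In NWD1 mice it was 16 with array weights and 17 with only the compared groups, and in Apc1638N/+ mice 5 with the latter. Array weights also gave 1 in NWD1 crypts, 4 in NWD1 villi, 2 in each of the Apc1638N/+ and p21-/- villi and 1 for the p21-/- interaction. Ain76A against wild-type crypts gave 1 with the deposited scaling, with probe sets measured on every array, with only the compared groups and without wild-type crypt arrays 2 and 4, and 0 with blanks filled.

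With single arrays left out, the crypt-villus counts ranged from 19 to 22 over all conditions, 10 to 15 in wild-type, 8 to 14 in Apc1638N/+, 7 to 13 in p21-/-, 15 to 18 in Ain76A, 5 to 6 in NWD1 and 0 to 1 in NWD2 mice. NWD2 crypts ranged from 3 to 11, Ain76A against wild type from 3 to 11 in villi and 1 to 3 in crypts, Apc1638N/+ from 0 to 2 in crypts and in villi, p21-/- from 0 to 1 in crypts and 0 to 3 in villi, and the interactions from 0 to 4 for NWD2 and 0 to 2 for p21-/-. The other 5 counts were 0 throughout. The deposited scaling moved the median of all probe sets from -0.06 to 0.04 in the NWD2 crypt comparison. The 2 calls of the NWD2 interaction under the replicate block were Sult2b1 (adjusted p = 0.0305, limma) and Gstm3 (0.0319), and the block moved no other count by over 1.5 times. The number of arrays and the 55.2% of blank cells limit what could be tested.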
